A study of Homo sapiens with 6 samples.

Results

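The collagen chain genes are the 44 rows of the deposited table, out of 28395 genes, whose symbol is COL, a number, the letter A and a digit, such as COL4A1. They were followed in HCC827 cells, a line established from a human adenocarcinoma of the lung in which mutant EGFR is active, after 24 h with either the vehicle DMSO or 1 μM erlotinib, a small molecule that blocks the EGFR kinase. RNA-seq was performed on 6 libraries of this line, 3 per treatment, all from cells grown in RPMI medium. The files name the DMSO libraries 1 to 3 and the erlotinib libraries Erlo4, Erlo5 and Erlo6. The libraries held between 20760204 and 24641819 reads on genes. Values are given as signal, the reads of a gene divided by 1 size factor per library. The labels do not say whether the 3 libraries of a treatment came from separate cultures. A general remark in the study's methods, that each experiment outside the animal studies was independently repeated at least 3 times, does not name these libraries. If they did not come from separate cultures, p-values measure only the spread between these libraries, which may be technical.

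Collagens are secreted or membrane-bound proteins in which α chains with a repeating glycine motif wind into a triple helix. Type IV chains form the meshwork of the basement membrane, the sheet on which epithelial cells rest. Fibrillar chains form the cables of connective tissue and are made mostly by fibroblasts, while the other families link fibrils, anchor epithelia or span the plasma membrane. In carcinomas, basement membrane collagens are made in part by the tumor cells and fibrillar collagens largely by the stroma.

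Of the 44 chains, 19 had a mean signal of at least 10 and were tested among 14215 genes with limma on log2(signal + 1) and Benjamini-Hochberg adjustment. At an adjusted p-value under 0.05, 11 of them were higher with erlotinib and 4 lower, and the 4 others (COL5A2, COL7A1, COL13A1 and COL24A1) were neither. Over all tested genes 35.3% were higher and 35.4% lower. The basement membrane chains split, with COL4A1, COL4A2 and COL4A6 lower and COL4A5 higher. Of the 5 tested fibrillar chains, COL1A1, COL5A1 and COL27A1 were higher. Of the 10 remaining tested chains, COL6A1, COL6A2, COL9A2, COL17A1, COL18A1, COL21A1 and COL28A1 were higher and COL12A1 was lower. COL5A1 and COL21A1 passed the filter only through their erlotinib libraries, with a mean signal under 10 in DMSO, so their passing and their rise are not independent. The counts are therefore a description of these chains and not evidence about collagens as a group. Since each library holds the RNA of many cells, more cells that express a chain and more RNA per cell cannot be told apart.

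**Figure D1:**
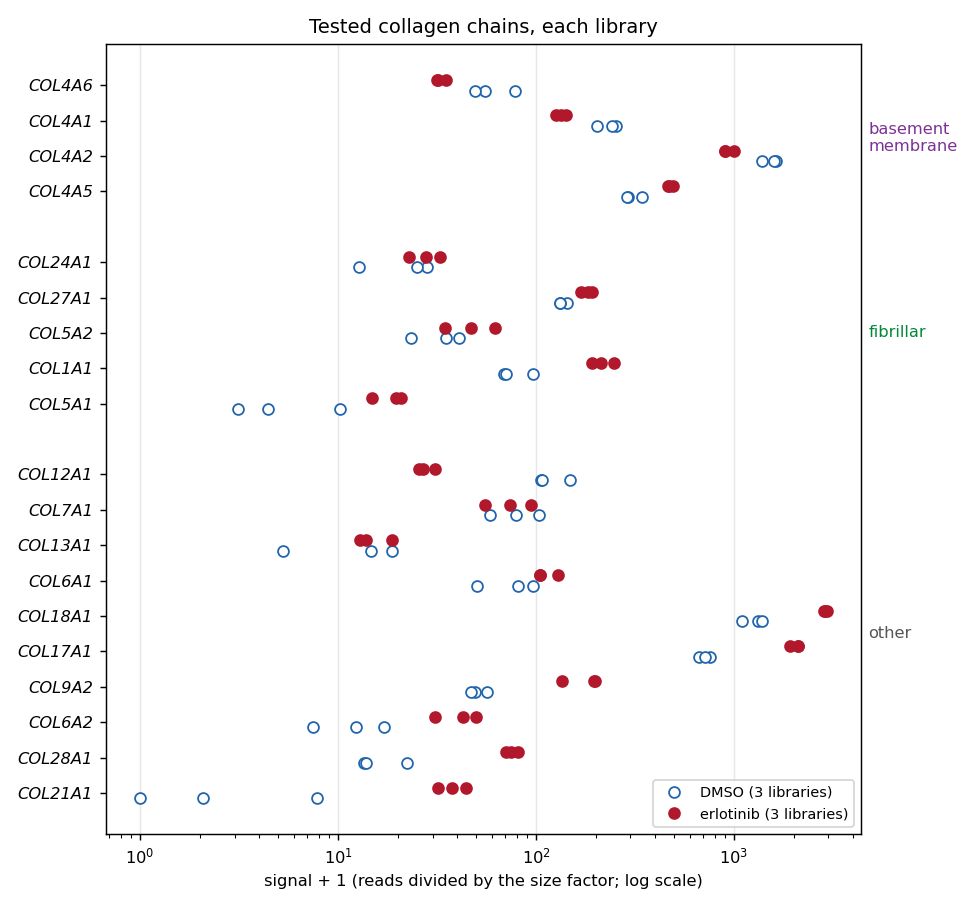
Signal + 1 on a log axis for the 19 tested collagen chains, with open blue circles for the 3 DMSO libraries and filled red circles for the 3 erlotinib libraries, grouped by class. The red and blue points of COL12A1, COL17A1, COL18A1, COL21A1 and COL28A1 lie apart, those of COL4A5 lie to the right of DMSO and those of the other type IV chains to the left.

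The genomic arrangement of the type IV genes is shown because 1 pair of neighbors, COL4A1 and COL4A2, fell together while COL4A5 and COL4A6 moved in opposite directions. These genes lie head to head in pairs, each pair transcribed in opposite directions from a short shared stretch. In the RefSeq annotation of GRCh38, 126 bases separate the starts of COL4A1 and COL4A2 on chromosome 13, and 379 bases separate the start of COL4A5 from the nearer of the starts of COL4A6 on chromosome X. The sequences below are from RefSeq (GRCh38.p14). They show the stretch between COL4A1 and COL4A2 up to the earliest annotated exon of COL4A2, the 250 bases before COL4A5 (on the side of COL4A6), and the 250 bases before COL17A1, the chain with the smallest adjusted p-value. Capitals mark the letters of a searched motif on either strand.
COL4A1-COL4A2 interval, chr13:110307158-110307257, + strand: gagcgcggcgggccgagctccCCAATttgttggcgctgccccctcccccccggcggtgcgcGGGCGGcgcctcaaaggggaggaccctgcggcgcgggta
COL4A5 upstream, chrX:108439588-108439837, + strand: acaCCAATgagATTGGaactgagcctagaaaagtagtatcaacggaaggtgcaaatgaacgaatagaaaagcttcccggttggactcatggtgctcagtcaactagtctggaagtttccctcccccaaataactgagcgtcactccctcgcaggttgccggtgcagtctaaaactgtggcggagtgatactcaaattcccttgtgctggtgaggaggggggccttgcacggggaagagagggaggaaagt
COL17A1 upstream, chr10:104085881-104086130, - strand: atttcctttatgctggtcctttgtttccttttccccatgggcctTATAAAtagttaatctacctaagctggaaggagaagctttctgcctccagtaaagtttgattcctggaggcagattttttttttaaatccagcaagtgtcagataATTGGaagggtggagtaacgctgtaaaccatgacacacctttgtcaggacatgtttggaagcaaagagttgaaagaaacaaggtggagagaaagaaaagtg

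The motifs were the CCAAT box (CCAAT), the GC box (GGGCGG), the TATA box (TATAAA), the AP-1 site (TGANTCA), the TEAD site (GGAATG) and a FOXO site (TGTTTAC), each searched on both strands. In the printed stretches no match overlapped one of another motif. The COL4A1-COL4A2 interval held 1 CCAAT box and 1 GC box, the COL4A5 stretch held 2 CCAAT boxes, and the COL17A1 stretch held 1 TATA box and 1 CCAAT box. Among all 34943 windows of 250 bases before a RefSeq start, 32.0% held the CCAAT letters, 42.5% the GC box, 10.8% the TATA box, 11.9% the TEAD letters, 6.59% the AP-1 letters and 2.98% the FOXO letters. Windows were found for 16 of the 19 tested chains, 22 windows in all. The GC box was in 14 of these windows (63.6%), the CCAAT letters in 6 (27.3%), the TATA box in 5 (22.7%), the TEAD letters in 1, that of COL12A1, and the AP-1 and FOXO letters in 0. A match is a description of the letters, and a missing one says only that they are not in this window.

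The study asked how EGFR bears on the Hippo pathway and its effector YAP, with this experiment on gene expression after EGFR inhibition as 1 part of it. Type IV collagen is the collagen that epithelial cells deposit beneath themselves. COL4A1 and COL4A2 encode the α1 and α2 chains, which assemble together into the common form of type IV collagen. The signal of COL4A2 (Entrez gene 1284, chromosome 13, 110307284 to 110513209 of GRCh38) was 1619.9, 1385 and 1597 in the DMSO libraries and 895, 1004 and 901 in Erlo4, Erlo5 and Erlo6. All erlotinib libraries lay below all DMSO libraries. Its mean fell from 1534 ± 129.7 to 933 ± 61.0 (SD, n = 3 each), a change of -0.71 on the log2 scale (standard error SE = 0.09, limma adjusted p = 2.96e-07). The signal of COL4A1 (Entrez gene 1282, chromosome 13, 110148963 to 110307157) was 202, 252 and 239.7 in DMSO and 132, 141 and 125 with erlotinib. Again the groups did not overlap, and the log2 change came to -0.79 (SE 0.16, limma adjusted p = 1.45e-04). Of 10 pairs of partner chains, 4 had both chains tested, and the log2 ratio of each was compared between treatments with Benjamini-Hochberg adjustment over the 4. The signal of COL4A1 was between 0.125 and 0.182 times that of COL4A2 in DMSO and between 0.139 and 0.147 times with erlotinib. The log2 ratio of the pair differed by -0.08 between treatments, less than its SD of 0.27 in DMSO (exact permutation test, two-sided, p = 0.7, adjusted 0.7), and the sign of this difference turned without DMSO library 2 (0.06).

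COL4A5 and COL4A6 encode the α5 and α6 chains, which assemble into the form of type IV collagen found in a subset of epithelial basement membranes, and α5 also joins the α3 and α4 chains. COL4A5 (Entrez gene 1287, chromosome X, 108439838 to 108697545) had a signal of 292, 341 and 286 in DMSO and 490.0, 463 and 469.9 with erlotinib. Every erlotinib library was above every DMSO library, and the log2 change came to 0.63 (SE 0.12, limma adjusted p = 5.92e-05). COL4A6 (Entrez gene 1288, chromosome X, 108155614 to 108439458), its head-to-head neighbor, went the other way. Its signal was 54.5, 48.3 and 77.1 in DMSO and 34.1, 30.7 and 30.9 with erlotinib, which is a log2 change of -0.86 (SE 0.29, limma adjusted p = 0.0130). The groups did not overlap, but DMSO library 3 was the highest, and without it the log2 change came to -0.67 with an adjusted p of 0.0747 (limma). The signal of COL4A5 was 5.35, 7.06 and 3.71 times that of COL4A6 in the DMSO libraries and 14.4, 15.1 and 15.2 times in the erlotinib libraries. The log2 ratio differed by 1.50 between treatments (exact permutation test, two-sided, p = 0.1, the smallest that 3 against 3 libraries allow, adjusted 0.2). COL4A3 and COL4A4, which encode the α3 and α4 chains and also lie head to head, with 418 bases between their starts, were too low to test. COL4A3 had 6, 6 and 5 reads in DMSO and 10, 5 and 22 with erlotinib, and COL4A4 had 3, 16 and 6 reads in DMSO and 6, 10 and 21 with erlotinib, so that both groups overlapped.

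**Figure D2:**
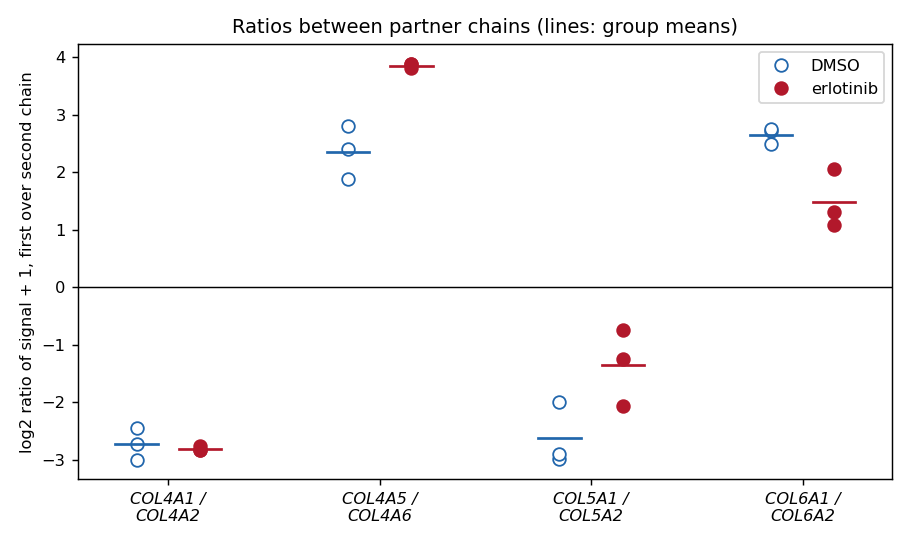
Log2 ratio of signal + 1 between partner chains in each library, with open blue circles for DMSO, filled red circles for erlotinib and lines for the means of 3 libraries. COL4A1/COL4A2 overlaps between treatments, COL4A5/COL4A6 is higher in all 3 erlotinib libraries (14.4 to 15.2 times against 3.71 to 7.06 times), COL5A1/COL5A2 overlaps, and COL6A1/COL6A2 is lower in all 3.

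Several collagens outside type IV belong to the basement membrane zone, and COL17A1 and COL18A1 had the highest signal per kilobase of all chains with erlotinib. COL17A1 encodes a transmembrane collagen of the hemidesmosome, which fastens epithelial cells to the basement membrane and is also known as BP180. Its signal (Entrez gene 1308, chromosome 10, 104031286 to 104085880) was 664, 756 and 709.6 in DMSO and 1907, 2104 and 2116 with erlotinib. The mean rose 2.88-fold, with no overlap between the groups and a log2 difference of 1.52 (SE 0.08, limma adjusted p = 1.22e-12). COL18A1 encodes a collagen of basement membranes whose C-terminal fragment is endostatin, an inhibitor of blood vessel growth. Its signal (Entrez gene 80781, chromosome 21, 45405165 to 45513720) was 1314, 1096 and 1386 in DMSO and 2874, 2834 and 2937 with erlotinib. The groups lay far apart, and the mean rose 2.28-fold, or by 1.19 on the log2 scale (SE 0.08, limma adjusted p = 6.42e-11). The span of COL18A1 overlaps that of SLC19A1, a folate transporter gene with a mean signal of 445 that moved in the other direction (log2 fold change -1.01, adjusted p = 2.18e-07, limma). COL15A1, of the same family as COL18A1, was not tested, with 0, 4 and 0 reads in DMSO and 6, 8 and 9 with erlotinib. COL7A1 encodes the anchoring fibrils that tie the basement membrane to the tissue below. Its signal was 78.3, 57.6 and 103 in DMSO and 93.2, 73.3 and 54.3 with erlotinib, overlapping throughout (log2 fold change -0.11, adjusted p = 0.73, limma). With scaling to the total count its change was 0.07 where the median of all genes was 0.19, so that it lay below the median gene on both scales.

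COL1A1 encodes the α1 chain of type I collagen, the main collagen of bone, skin and tumor stroma. Its signal (Entrez gene 1277, chromosome 17, 50184101 to 50201631) was 68.1, 69.7 and 95.3 in DMSO and 245, 213 and 190.0 with erlotinib. Its mean rose 2.78-fold, all erlotinib libraries were above all DMSO libraries, and the log2 change came to 1.47 (SE 0.19, limma adjusted p = 6.78e-07). COL1A2, which encodes the α2 chain that usually joins 2 α1 chains in type I collagen, had 1, 2 and 0 reads in DMSO and 0 in each erlotinib library. COL3A1, the companion of type I collagen in connective tissue, had at most 2 reads in any library. COL27A1, a fibrillar chain of cartilage, had a signal of 143, 132 and 131 in DMSO and 183, 191 and 168 with erlotinib. On the log2 scale its change was 0.41 (SE 0.16, limma adjusted p = 0.0266), and the groups did not overlap. COL27A1 was no longer past the threshold without DMSO library 3, Erlo4 or Erlo5 (adjusted p of 0.0563, 0.0734 and 0.0978, limma).

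COL5A1 and COL5A2 encode chains of type V collagen, which sits within type I fibrils and limits their width. COL5A1 (Entrez gene 1289, chromosome 9, 134641803 to 134844843) had a signal of 3.40, 9.29 and 2.14 in DMSO and 13.8, 19.8 and 18.7 with erlotinib. The groups did not overlap, and its log2 change was 1.81 (SE 0.64, limma adjusted p = 0.0163), but it rests on 2 to 10 reads per DMSO library and was 0.90 with a pseudocount of 10. Without Erlo5 or Erlo6 its adjusted p was 0.0648 or 0.0599 (limma). The groups of COL5A2 overlapped, with 34.0, 39.9 and 22.5 in DMSO and 60.9, 33.7 and 45.9 with erlotinib (log2 fold change 0.53, adjusted p = 0.166, limma, and 0.30 without DMSO library 3). The log2 ratio of COL5A1 to COL5A2 differed by 1.28 between treatments (exact permutation test, two-sided, p = 0.2, adjusted 0.267), and by 0.47 with a pseudocount of 10 (p = 0.3, exact). COL24A1 also overlapped between treatments (log2 fold change 0.40, adjusted p = 0.401, limma, and 0.04 without DMSO library 3).

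Among the collagens that decorate or link fibrils, the so-called FACIT family, the tested chains moved in both directions. COL12A1 encodes a large fibril-associated chain of dense connective tissue. It had a signal (Entrez gene 1303, chromosome 6, 75084326 to 75206053) of 104, 147 and 106 in DMSO and 25.8, 24.7 and 29.95 with erlotinib. This was the largest fall of the tested chains, 4.43-fold between the means with no overlap, or -2.09 on the log2 scale (SE 0.26, limma adjusted p = 3.88e-07). COL9A2 encodes a chain of the FACIT collagen of cartilage. Its signal (Entrez gene 1298, chromosome 1, 40300489 to 40317286) was 55.6, 48.3 and 46.0 in DMSO and 195, 135 and 198 with erlotinib. The groups lay apart, although Erlo5 was lower than the other erlotinib libraries, and the log2 change came to 1.78 (SE 0.22, limma adjusted p = 2.86e-07). COL9A3, whose chain assembles with that of COL9A2, had at most 6 reads in any library. COL21A1 (Entrez gene 81578, chromosome 6, 56056590 to 56394128), a FACIT collagen of blood vessel walls, had 6, 0 and 1 reads in DMSO and 47, 37 and 33 reads with erlotinib. Every erlotinib library was thus above every DMSO library (adjusted p = 5.75e-05, limma). The fitted log2 fold change was 3.90 (SE 0.71) and depends on the pseudocount, with 5.30 at 0.1 and 1.92 at 10. It was 4.71 without DMSO library 1 and 3.23 without DMSO library 2.

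Type VI collagen forms beaded filaments near basement membranes and is built from the α1 and α2 chains with a further chain, usually that of COL6A3. COL6A2 (Entrez gene 1292, chromosome 21, 46098112 to 46132848) had a signal of 11.3, 6.50 and 16.1 in DMSO and 48.9, 41.6 and 29.95 with erlotinib. The groups did not overlap, and the log2 change came to 1.79 (SE 0.44, limma adjusted p = 0.00102). COL6A1 (Entrez gene 1291, chromosome 21, 45981770 to 46005048) had 80.5, 49.2 and 95.3 in DMSO and 104, 104 and 128 with erlotinib, without overlap. On the log2 scale its change was 0.62 (SE 0.24, limma adjusted p = 0.0268), but the log2 change was 0.35 without DMSO library 2 (adjusted p = 0.155, limma) and 0.52 without Erlo6 (adjusted p = 0.114, limma). The signal of COL6A1 was 5.93 to 7.57 times that of COL6A2 in DMSO and 2.13 to 4.28 times with erlotinib (difference of the log2 ratio -1.17, exact permutation test, two-sided, p = 0.1, adjusted 0.2). With a pseudocount of 10 this difference was -0.68. COL6A3 had at most 8 reads in any library. COL28A1 (Entrez gene 340267, chromosome 7, 7338194 to 7543870), a chain whose domains resemble those of type VI, had a signal of 12.5, 21.4 and 12.8 in DMSO and 80.3, 69.3 and 73.9 with erlotinib. All erlotinib libraries were well above DMSO, by 2.23 on the log2 scale (SE 0.33, limma adjusted p = 4.84e-06). COL13A1, a transmembrane collagen of cell junctions, had 13.6, 17.6 and 4.28 in DMSO and 12.9, 11.9 and 17.8 with erlotinib. These overlapped (log2 fold change 0.41, adjusted p = 0.536, limma), and without DMSO library 3 the sign turned (-0.14).

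**Figure D3:**
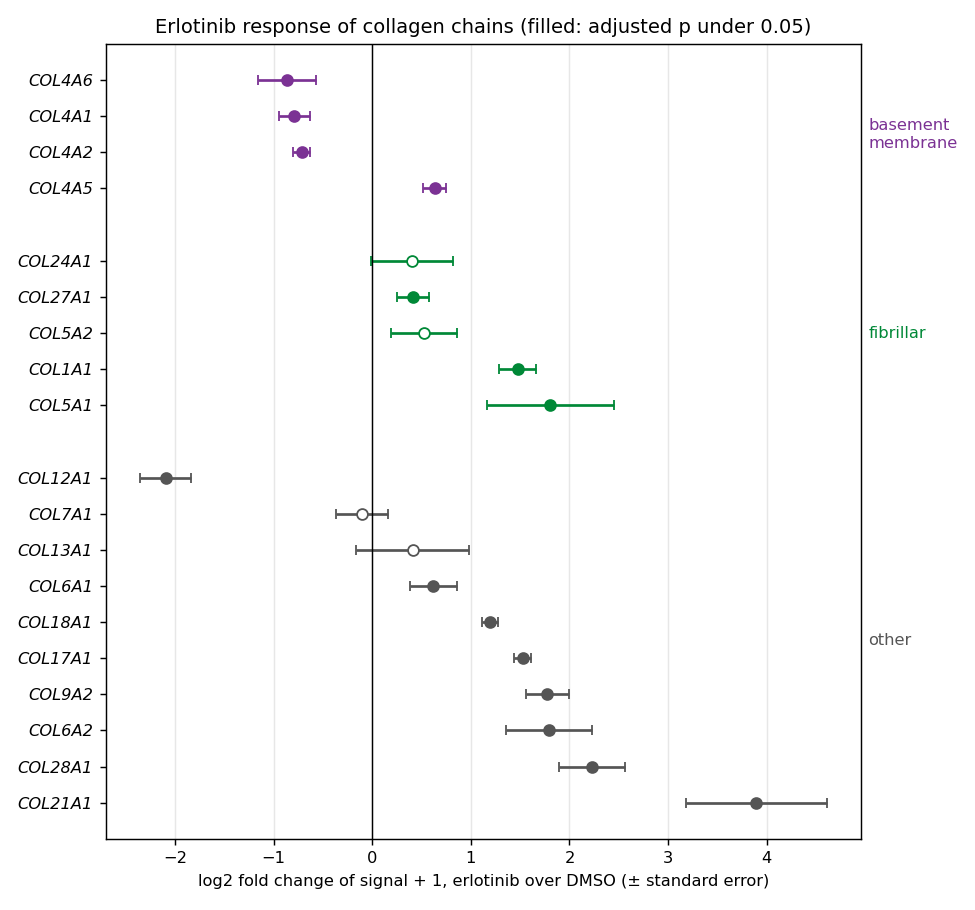
Log2 fold change of signal + 1, erlotinib over DMSO, with the standard error from limma for the 19 tested chains, colored by class and filled where the adjusted p-value was under 0.05. The filled points run from -2.09 (COL12A1) to 3.90 (COL21A1), 3 of the 4 type IV chains lie left of 0, and all 5 fibrillar chains lie right of it.

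By class, the 4 tested basement membrane chains of type IV, out of 6, split into 3 lower and 1 higher (median log2 fold change -0.75). The 5 tested fibrillar chains, out of 11, gave 3 higher and 0 lower in limma, with a median of 0.53. Only 1 was higher without Erlo5 or at an adjusted p under 0.01, beside 32.5% and 30.4% of all tested genes. All 5 had a positive fold change, so the number lower was also 0 at an unadjusted p under 0.05, and it was 0 in edgeR and DESeq2. The 10 tested chains of the other families, out of 27, gave 7 higher, 1 lower and 2 neither, with a median of 1.36. The median over all tested genes was 0.02, and 29.3% of them were neither. With no filter on the signal, the medians were -0.11 for type IV, 0.46 for the fibrillar and 0.53 for the other chains, beside 0.13 for all genes. With COL7A1, COL17A1 and COL18A1, the tested collagens of the basement membrane zone, added to type IV, 3 chains were lower, 3 higher and 1 neither, with a median of -0.11. The direction of the basement membrane class thus rests on where these chains are placed. The classes were not tested against each other. Scaling each library to its total count in place of the deposited size factors moved the median of all genes to 0.19, and relative to that shift the called chains kept their directions. Of the 19 tested chains, 15 had no overlap between the groups, 11 higher and 4 lower with erlotinib, while over all tested genes 36.7% were higher and 36.9% lower without overlap.

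Levels between chains were compared as signal per kilobase of merged exons. The 5 highest were COL18A1, COL17A1, COL4A2, COL4A5 and COL9A2, and the same 5 were highest with the longest transcript as length, both as means over all 6 libraries. The order in DMSO depends on the length used. With the longest transcript, COL4A2 was highest in DMSO at 238 per kilobase, above COL18A1 at 192 and COL17A1 at 126, while with erlotinib COL18A1 was at 438, COL17A1 at 364 and COL4A2 at 145. With merged exons, the level of COL18A1 in DMSO was 149 ± 17.9 per kilobase, that of COL17A1 102 ± 6.60 and that of COL4A2 79.6 ± 6.73 (SD, n = 3 each). With erlotinib these levels were 340.5 ± 6.15, 292 ± 16.7 and 48.4 ± 3.17. The ranges of neighbors in this order did not overlap in either treatment on this scale. Next came COL4A5 with 25.8 ± 2.55 in DMSO and 39.96 ± 1.17 with erlotinib, and COL9A2 with 11.9 ± 1.19 and 41.7 ± 8.43. These 2 chains were thus apart in DMSO and differed by less than the SD of COL9A2 with erlotinib. COL9A2 was among the 5 highest only with erlotinib and in the mean over all libraries. COL4A1 was at 15.8 ± 1.77 per kilobase in DMSO and 9.05 ± 0.518 with erlotinib, above COL9A2 in DMSO and below it with erlotinib. COL6A1 was at 13.5 ± 4.25 and 20.3 ± 2.52 per kilobase, within its SD of COL4A1 and COL9A2 in DMSO. COL1A1 was at 8.62 ± 1.69 and 24.0 ± 3.09 per kilobase.

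Summed over all 44 chains, the signal per kilobase of merged exons was 454, 432 and 473 in the DMSO libraries. It was 873, 875 and 899 in the erlotinib libraries, a 1.95-fold rise of the mean. The size of this rise depends on the length used. Without division by length, the mean summed signal was 4776 in DMSO and 7591 with erlotinib, a smaller relative rise. COL17A1 and COL18A1 together made up 55.4% ± 0.606 of the sum per kilobase of merged exons in DMSO and 71.7% ± 1.38 with erlotinib (mean and SD of 3 libraries). The type IV chains made up 28.4% ± 0.417 in DMSO and 11.7% ± 0.364 with erlotinib. With the longest transcript as length, their shares were 43.7% and 19.4%. The share of COL17A1 and COL18A1 was not calculated on that length, so 55.4% and 71.7% hold for merged exons only. With the longest transcript, COL4A2 was highest in DMSO (238 per kilobase, against 192 for COL18A1 and 126 for COL17A1). With merged exons, the summed level of the type IV chains was 129 ± 3.97 in DMSO and 103 ± 2.11 with erlotinib, a smaller relative fall than that of their share. The fibrillar chains rose in level from 25.6 ± 0.787 to 47.8 ± 4.66 and kept a share of 5.67% ± 0.417 and 5.42% ± 0.591. No test was run on these sums, which are dominated by a few chains.

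**Figure D4:**
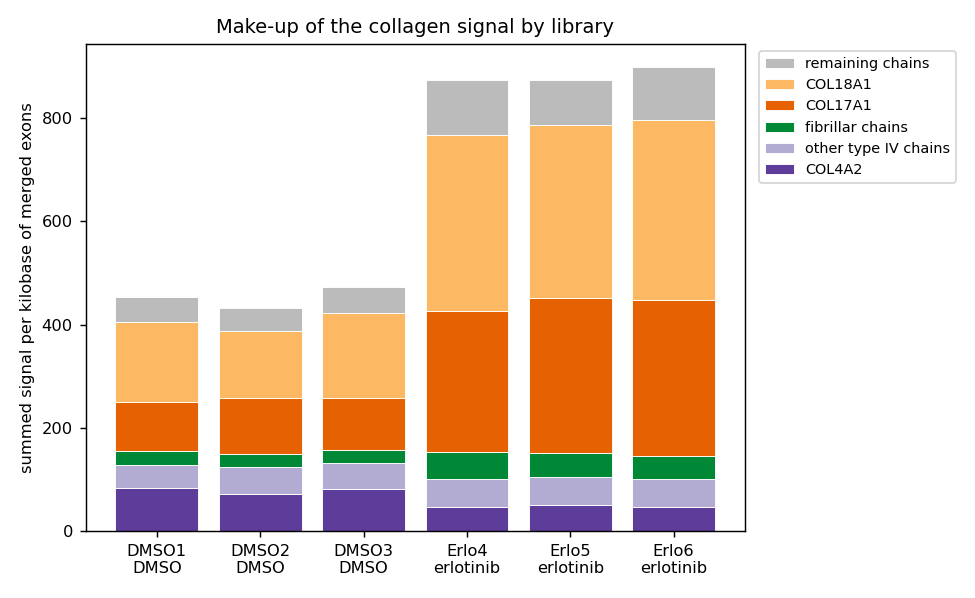
Stacked bars of the signal per kilobase of merged exons, summed over the 44 collagen chains in each of the 6 libraries. The bars of the erlotinib libraries reach 873 to 899 against 432 to 473 in DMSO, the COL17A1 and COL18A1 parts grow, and the COL4A2 part shrinks.

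Bowtie2 aligns a read as 1 piece, without a gap for an intron, and reads that span short exons can be lost. Collagen genes are cut into many short exons. In the canonical transcripts of the 19 tested chains, exons under 150 bases made up 33.8% to 81.2% of the bases, with a median of 46.4%. The median exon was 54 bases long in each of the 5 tested fibrillar chains and between 90 and 108 bases long in the tested type IV chains. COL7A1, with 119 exons, had the largest share of short exons. The part of exon length in the levels was not tested, and the order between classes should be read with it.

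The 25 chains below the filter had at most 22 reads in any library. COL5A3, COL6A5, COL11A1, COL11A2 and COL22A1 had 0 reads in all 6 libraries. For COL5A3, COL6A5, COL11A1 and COL22A1 this allows a signal of up to 2.77 to 3.40 per library, for counting error only. That limit takes reads as independent and would be higher if both mates of a pair were counted, which is not given. The transcript of COL11A2 has copies on 6 alternate contigs of GRCh38, and reads that map to several places were not counted. Whether those contigs were in the genome used is not given in the sources used here, so no level can be given for COL11A2. The other 18 chains with at most 10 reads were COL1A2, COL2A1, COL3A1, COL6A3, COL6A6, COL8A1, COL8A2, COL9A1, COL9A3, COL10A1, COL14A1, COL15A1, COL16A1, COL19A1, COL20A1, COL23A1, COL25A1 and COL26A1. With no filter on the signal, 20 of the 25 chains entered the fit. Of these, COL15A1 and COL23A1 were called higher (adjusted p = 0.00854 and 0.0339, limma). COL15A1 had at most 9 reads in any library, and COL23A1 had 0 in each DMSO library and 2 in each erlotinib library. Over all 19595 genes of that fit 28.0% were higher, a larger share than 2 of 20. The network-forming chains COL8A1, COL8A2 and COL10A1, which build sheets in vessel walls, the cornea and cartilage, were all in this group.

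The identity of the cells was checked against marker genes, since fibrillar collagens are typical of stroma. The epithelial markers EPCAM, CDH1, KRT7, KRT8, KRT18 and KRT19 had a summed signal of 286814, 254717 and 276894 in DMSO and between 185948 and 191721 with erlotinib. Of these 6, 4 were lower (the keratins, 66.7% beside 35.4% of all tested genes) and 2 were neither. The stromal markers PDGFRA, PDGFRB, THY1, LUM, DCN, POSTN, FAP and DPT had a summed signal of 2.27, 3.71 and 11.8 in DMSO and 13.8, 10.9 and 27.1 with erlotinib. THY1, POSTN and FAP were at 0 in every library, and the most abundant, LUM, averaged 4.14 in DMSO and 12.6 with erlotinib. None of the 8 reached the filter. The smooth muscle markers ACTA2, MYH11, DES and CNN1 summed to at most 13.1 in any library, with MYH11 listed at 0. The transcript of MYH11 has a copy on 1 alternate contig of GRCh38, so no level can be given for it. Of the endothelial markers, CDH5 was below the filter, PECAM1 averaged 15.7 in DMSO and 10.4 with erlotinib, and VWF rose from 3.94 to 27.4 (log2 fold change 2.74, adjusted p = 6.62e-04, limma), having passed the filter only through its erlotinib libraries. Their sum was 34.0, 15.8 and 20.3 in DMSO and 58.1, 42.6 and 43.1 with erlotinib. The lung markers NKX2-1 and NAPSA were higher (log2 fold changes 1.53 and 1.92, adjusted p of at most 5.19e-14, limma), while SFTPB and SFTPC had too few reads to test, and the summed signal of these 4 was 3916, 3804 and 4270.5 in DMSO and 12738.5, 12021 and 12403 with erlotinib. The part of these markers in the collagen changes was not tested.

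Before secretion, collagen chains are hydroxylated, glycosylated and folded in the endoplasmic reticulum. Of 25 genes of this machinery, 22 were tested, and 10 fell, 4 rose and 8 passed in neither direction, and the median log2 fold change was -0.15. These are 45.5% lower and 18.2% higher, against 35.4% and 35.3% of all tested genes. The lower genes were P4HA1, PLOD1, PLOD2, PLOD3, COLGALT1, PPIB, FKBP14, CREB3L1, SEC23A and TMEM38B. CREB3L1, a transcription factor that drives collagen genes, fell by 1.52 on the log2 scale (adjusted p = 0.0302, limma) from a mean signal of 16.6 to 5.38. It passed the filter only through its DMSO libraries, so its passing and its fall are not independent. P4HA1, the catalytic subunit of a prolyl 4-hydroxylase that stabilizes the helix, fell by 1.35 (adjusted p = 2.39e-11, limma), from a mean signal of 1442 (SD 83.1) to 565 (SD 35.9). All 3 PLOD genes, which encode lysyl hydroxylases, were lower, with log2 fold changes of -0.31, -1.02 and -0.59 for PLOD1, PLOD2 and PLOD3 (adjusted p of at most 0.00594, limma). The higher genes were SPARC, SERPINH1, MIA3 and P3H1. SPARC, a collagen-binding secreted protein, had a log2 fold change of 1.89 (adjusted p = 6.15e-04, limma) at a mean signal of 13.9 and 52.5. SERPINH1, the collagen chaperone HSP47, rose by 0.34 (adjusted p = 6.65e-04, limma). Once libraries were scaled to their total count, 7 of these genes were lower and 7 higher (31.8% each), beside 27.8% lower and 43.3% higher over all tested genes on that scale.

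Outside the cell, propeptides are cut off and chains are crosslinked. Of 15 genes of these steps, 10 were tested, with 4 lower (40.0%), 3 higher (30.0%) and 3 neither, shares near those of all tested genes (35.4% and 35.3%). PCOLCE, which enhances the removal of the C-propeptide, rose by 2.13 on the log2 scale (adjusted p = 4.41e-09, limma), and BMP1, the protease it enhances, rose by 0.79 (adjusted p = 2.54e-06, limma). PCOLCE2, the close relative of PCOLCE, went the other way with -1.56 (adjusted p = 1.29e-05, limma). The crosslinking enzyme LOXL3 fell by 0.91 (adjusted p = 8.42e-04, limma), followed by LOXL2 with -0.90. ADAMTS2 and ADAMTS14, which cut the N-propeptide of fibrillar collagens, had 0 reads in every library.

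Of 10 genes for collagen receptors, 6 were tested, with 2 lower, 2 higher and 2 neither. The share of 33.3% in each direction is near that of all tested genes. The integrin subunits ITGA2 and ITGA1 pair with ITGB1 to bind collagen, with a preference for fibrillar collagen in the former and for type IV in the latter. ITGA2 fell by 1.15 on the log2 scale and ITGB1 by 0.24 (adjusted p = 6.03e-11 and 0.00376, limma). The call of ITGB1 was lost with scaling to the total count (-0.06, adjusted p = 0.438, limma). In contrast, ITGA1 rose by 1.20 (adjusted p = 1.43e-04, limma) from a mean signal of 45.5 to 105. MRC2, an uptake receptor for collagen, rose by 1.59 (adjusted p = 1.04e-04, limma). DDR1, the discoidin receptor of epithelial cells, was listed at 0 in every library. Its transcript has copies on 6 alternate contigs, as has that of COL11A2, so no level can be given for it. GP6 and LAIR1, also at 0, have copies on 9 and 4 such contigs.

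The other basement membrane components give the setting of the type IV chains. Of 17 genes, 13 were tested, with 5 higher (38.5%), 4 lower (30.8%) and 4 neither, again near the shares of all tested genes, and the median log2 fold change was 0.26. The largest rises were those of the laminin chain LAMB2 (1.69, adjusted p = 7.92e-13, limma) and of the proteoglycan AGRN (0.49, adjusted p = 2.13e-05, limma). LAMB2 went from a mean signal of 728 to 2337. The largest falls were those of LAMC3 (-1.19, adjusted p = 7.02e-04, limma) and LAMA2 (-0.94, adjusted p = 0.0149, limma). NID1 and NID2, which link the type IV meshwork to laminin, were neither, with mean signals under 50 in both treatments. HSPG2, the proteoglycan perlecan, rose by 0.26 (adjusted p = 0.0381, limma), although its groups overlapped, with 664 in Erlo5 and 686 in DMSO library 3. It lost its call with TMM factors (adjusted p = 0.0542, limma), with no filter (0.0515) and without DMSO library 1 or 2, Erlo4 or Erlo6 (0.0600 to 0.262).

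**Figure D5:**
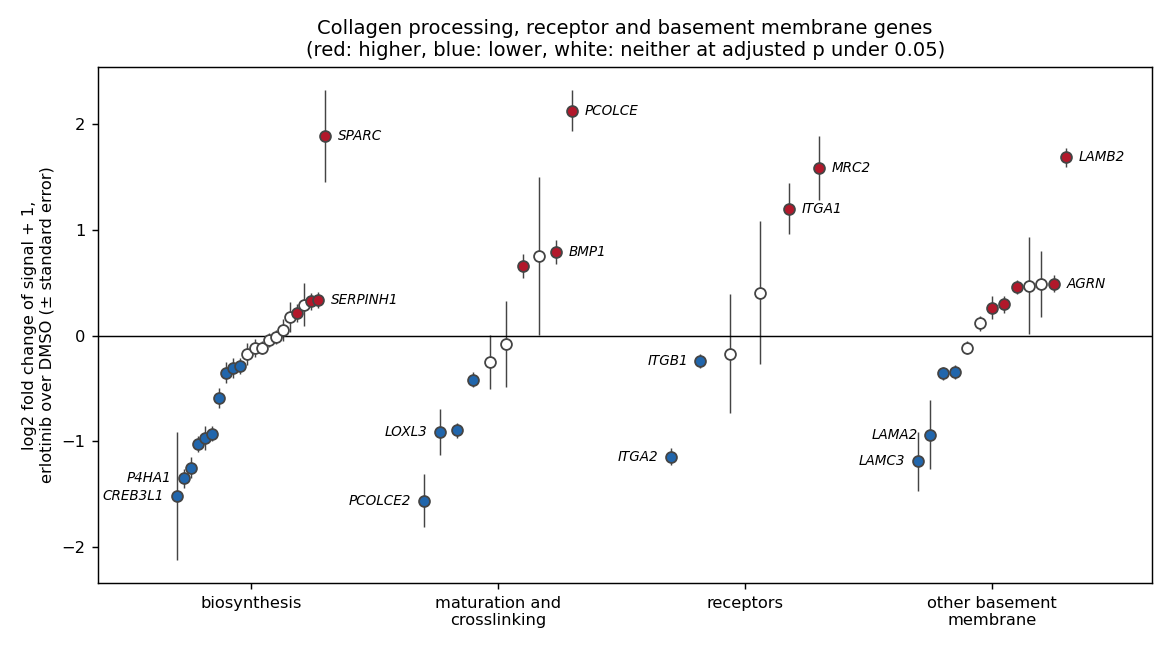
Log2 fold change of signal + 1, erlotinib over DMSO, with the standard error from limma for the tested genes of 4 lists, red where higher, blue where lower and white where the adjusted p-value was not under 0.05. The biosynthesis list has 10 blue and 4 red points (7 lower and 7 higher with scaling to the total count, where 27.8% of all tested genes were lower and 43.3% higher), and each list has both colors.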

How the data were processed

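Per the study's methods, read pairs were aligned to GRCh38 by Bowtie2 2.3.4, and featureCounts 1.6.3 counted those with a unique position. The deposited signal is the read number of a gene over 1 size factor for each library, since every value is a whole multiple, to within 0.01 reads, of the smallest value of its library. The strand counted is not given in the sources used here. Even numbers made up 59.3% to 63.1% of the values of 1 to 10 reads, and whether mates were counted separately is not given.

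Erlotinib was compared with DMSO by limma 3.58.1 (R 4.3.3) on log2(signal + 1) with a mean trend, two-sided, for 14215 genes (mean signal 10 or more), adjusted by the Benjamini-Hochberg method. The pseudocount of 1 moves the fold changes of low genes most. Of the per-sample columns, 0 were left out. Chain ratios were tested by exact permutation. Alternatives used edgeR 4.0.16 and DESeq2 1.42.0 on the recovered whole reads (100% of the values), on which edgeR called 4941 genes lower and 5085 higher against 5031 and 5012 in limma, other scalings, pseudocounts, filters, a stricter threshold and each library left out. Exon lengths came from GENCODE release 44, positions and promoters from RefSeq, and copies on 261 alternate contigs from minimap2 2.31-r1302 (at least 90% aligned at 97% identity). limma was tested on simulated data.

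The members and gene lists were chosen with earlier results of these data known. Named are all tested chains, with values per library for the tested type IV chains, the 3 largest rises and falls and the 5 highest per kilobase, and the 2 largest rises and falls of each list. Other values and names, including those of partner chains, were chosen after seeing the data.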

Additional observations from a re-analysis of the deposited data

How the results depend on the processing

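All 4 lower and 11 higher chains kept their calls in edgeR, DESeq2, limma with TMM factors, with pseudocounts of 0.1 and 10 and with scaling to the total count, and 11 of the 15 under every alternative that tested them. COL4A6, COL5A1, COL6A1 and COL27A1 did not, since each lost its call at an adjusted p-value under 0.01 and without at least 1 library, and COL6A1 also with no filter (adjusted p = 0.0569). Over the alternatives, 3 to 4 chains were lower and 8 to 12 higher, with 3 lower at the threshold of 0.01 or without DMSO library 3, and 8 higher at that threshold or, of 15 tested, with at least 10 reads in every library. Over all genes, 31.3% were lower and 30.4% higher at 0.01, 34.1% and 33.9% without DMSO library 3, and 38.3% and 33.9% with at least 10 reads. The 12 higher were of 39 chains in the fit with no filter (30.8%, and 10.3% lower), beside 28.0% higher and 25.4% lower over all genes. In the main fit 57.9% of the tested chains were higher, beside 35.3% of all genes. With an adjusted p under 0.01, 1 fibrillar chain was higher, and without 1 library 1 to 3, the 1 without Erlo5 (32.5% of all genes higher). With the basement membrane zone collagens added, 3 chains of that class were higher.

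Scaling to the total count moved all genes up (median 0.02 to 0.19, 5031 to 3955 lower, 5012 to 6156 higher), and with them gave medians of -0.57 for type IV and 1.54 for the other families, 7 higher and 7 lower biosynthesis genes, 1 lower receptor gene and a reversed sign for COL7A1 (0.0716). With no filter the medians were -0.11 for type IV and 0.53 for the other families, as chains with few reads entered. The median of the other families was 1.21 with a pseudocount of 10 and 1.19 with at least 10 reads in every library. Leaving out 1 library gave medians of -0.80 to -0.68 for type IV, 0.39 to 0.74 for the fibrillar and 1.29 to 1.39 for the other chains. It reversed COL7A1 without DMSO library 3 (0.0965) or Erlo6 (0.0934; range -0.3158 to 0.0965), COL13A1 without DMSO library 3 (-0.1391; range -0.1391 to 0.7708), and the COL4A1/COL4A2 difference without DMSO library 2 (range -0.212 to 0.0590). With the longest transcript as length, type IV chains made up 43.7% of the collagen signal in DMSO and 19.4% with erlotinib. The causes were not tested. No paired analysis was possible because the erlotinib columns carry the numbers 4 to 6, which cannot be tied to the numbers of the samples. Of the 25 chains below the filter, 5 had no reads. With no filter 2 of the other 20 were called higher at few reads, beside 28.0% of all genes in that fit. HSPG2 lost its call under several of these settings.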
